A study of Drosophila melanogaster with 24 samples.

Results

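The peaks called for CLOCK (CLK) and for CYCLE (CYC) in heads of Drosophila melanogaster were compared site by site. A peak was counted as shared when it overlapped a peak of the partner protein by 1 bp or more, and otherwise as CLK-only or CYC-only. Of 7810 peaks in 6 deposited lists, 1410 came from head, with 1016 for CLK and 394 for CYC. They fell into 117 shared CLK peaks that met 116 shared CYC peaks, 899 CLK-only peaks and 278 CYC-only peaks.

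CLK and CYC are bHLH-PAS transcription factors that bind E-box DNA as a heterodimer. In clock neurons and photoreceptors of the fly head the pair drives transcription of period (per) and timeless (tim), whose products return to the nucleus and block it. A further loop runs through vrille (vri) and Par-domain protein 1 (Pdp1), whose products repress and activate Clk.

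For each protein the head material comprised 2 immunoprecipitated and 2 input libraries, with 200 heads per biological replicate collected at zeitgeber time 10 h. Chromatin sheared to 100 to 500 bp was precipitated with an antibody to GFP, and 5% of it was kept as input. The study lists testis and ovary samples of the same kind. The labels used here name no strain, genotype, GFP construct, age or sex of the flies and no chromatin from untagged flies. A list gave positions only, so enrichment and depth were unknown, and a peak missing from a list means that none was called there. Each protein had 1 list, with no list per replicate. The tests below therefore count peaks and hold no error between replicates, and intervals are exact 95% Clopper-Pearson intervals for the counting of peaks alone. No marker of a cell type could be checked, since the lists hold no expression.

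The shared class was led by clock genes. Of the 12 shared sites with the widest overlap, 11 lay in or within 1 kb of vri, per, tim or Pdp1, which together held 14 of the 117 overlapping pairs. Their overlaps ran from 157 to 2020 bp, with a median of 583 bp, against a median of 233 bp and a maximum of 464 bp for the other 103 pairs. The remaining site of the 12 lay in goliath (gol), which encodes a RING-finger ubiquitin ligase, with an overlap of 464 bp. Overlap formed the classes, so these values describe the sites and were not tested.

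At vri the 6 CLK peaks and 5 CYC peaks were paired along the gene, and no peak of either protein stood alone. In the broadest pair the CLK peak ran from 5302214 to 5304234 on 2L, over 2020 bp, and lay wholly within a CYC peak of 2657 bp that ran from 5302211 to 5304868. This CYC peak also covered a separate CLK peak of 224 bp, which made it the 1 CYC peak that met 2 CLK peaks. On its flanks, pairs of 1017 and 1022 bp and of 945 and 963 bp had midpoints 16.5 bp and 0 bp apart. The 2 further pairs of vri were narrower, and the one at its lower-coordinate end had a CLK peak of 556 bp and a CYC peak of 451 bp.

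At tim the pair inside the gene (2L, CLK 3504801 to 3505459, CYC 3504840 to 3505468) overlapped by 619 bp. The pair at the end of the gene overlapped by 690 bp, and there the CLK peak reached farther out, with 1120 bp against 805 bp. At per the outer pair (X, CLK 2684540 to 2685615, CYC 2684541 to 2685425) started at nearly the same base and overlapped by 884 bp. The inner pair of per overlapped by 562 bp, and between these pairs stood a CLK-only peak of 402 bp.

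Pdp1 held both kinds of site. Its 4 shared pairs lay 18.3 to 23.8 kb from the nearest end of the gene by the CLK midpoint, with CLK widths from 222 to 709 bp and CYC widths from 230 to 635 bp. Its 5 CLK-only peaks lay on either side of this block, and the widest of them (3L 7866959 to 7867689, 730 bp) had its midpoint 45 bp from the other end of the gene. The distance from that CLK-only peak to the nearest CYC peak was 31481 bp.

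**Figure D1:**
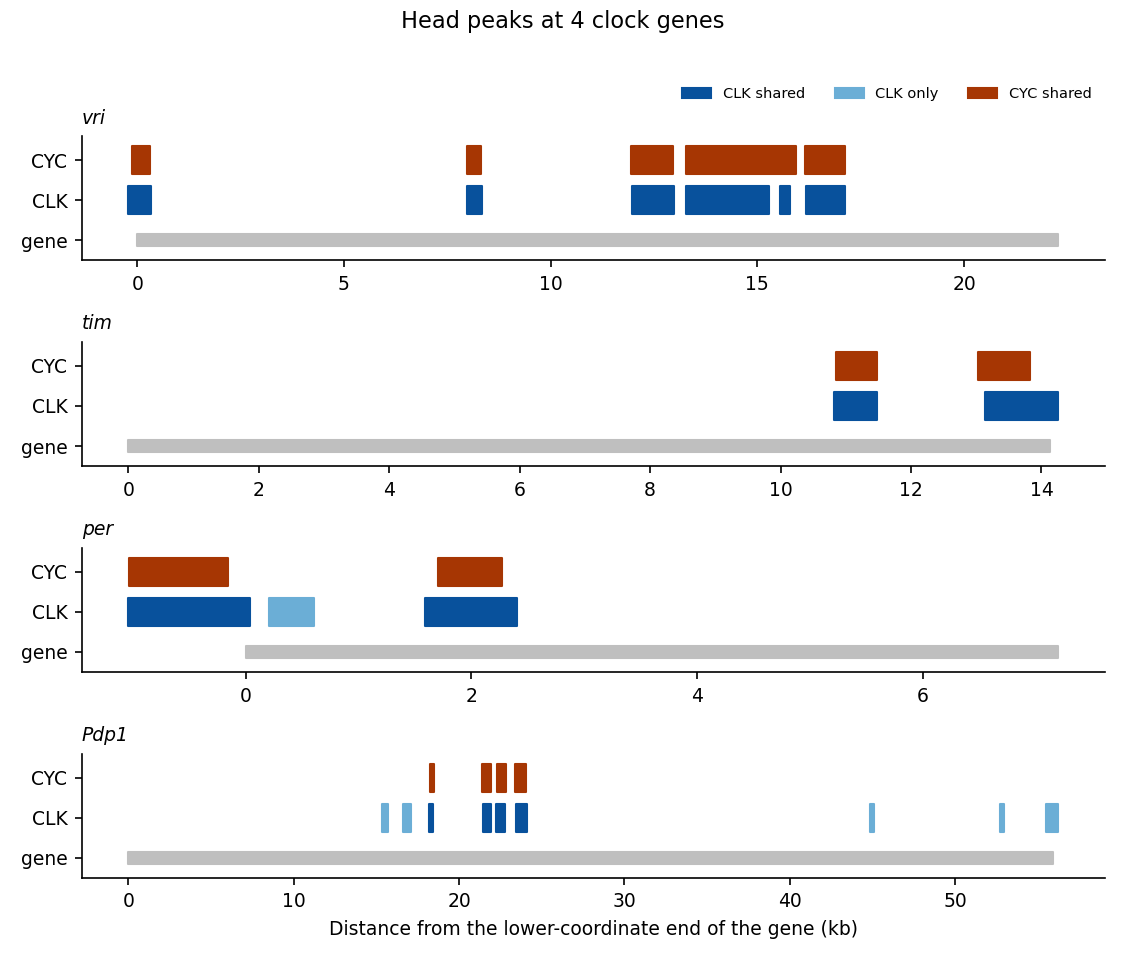
Peaks of CLK and CYC in head at vri, tim, per and Pdp1, with the gene as a grey bar and the distance in kb from its lower-coordinate end on the horizontal axis. Every peak of vri and tim is shared, while per has 1 CLK-only peak and Pdp1 has 5, and none of the 4 genes has a CYC-only peak.

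The other core clock genes with head peaks had peaks of 1 protein. Clk had 3 CLK-only peaks of 378 to 477 bp, and sgg, which encodes the kinase Shaggy, had 2 of 220 and 230 bp. Near jet, which encodes an F-box protein, was 1 of 204 bp. Its midpoint lay outside jet, 194 bp from its end, and inside another gene. The kinase gene dco, also known as doubletime, had 2 CYC-only peaks of 392 and 209 bp. Among 16 core clock genes, 4 held a shared peak in the gene or within 1 kb, 5 a CLK-only peak and 1 a CYC-only peak. Over all 13922 protein-coding genes these shares were 0.963%, 8.29% and 3.25%. The clock list was chosen with these results known, so the counts are a description.

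Shared sites also recurred within genes outside the clock list. In all, 134 genes had a shared site in them or within 1 kb, and 8 of these had 2 or more. Besides vri, Pdp1, per and tim these were Cipc with 3, CG14556, a short gene within Cipc, with 2 of the same sites, and kay and ctrip with 2 each. These 4 genes were singled out after their values were seen. Cipc carries the name of the mammalian CIPC protein, which in mammals interacts with CLOCK and represses it. kay encodes the Fos protein of the fly, a bZIP factor, and ctrip (circadian trip) encodes a HECT-type ubiquitin ligase.

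At Cipc the 3 CLK peaks had widths of 278, 391 and 959 bp, and the CYC peaks that met them had widths of 324, 301 and 276 bp. The widest CLK peak (3R 26127920 to 26128879) held its CYC peak entirely, and the 3 sites fell within 3813 bp. At ctrip the pairs overlapped by 251 and 191 bp, and the 2 sites spanned 3570 bp. At kay the CLK peaks were 436 and 199 bp wide and the CYC peaks 309 and 479 bp, beside 1 CLK-only peak of 307 bp.

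The midpoints of paired peaks can differ only as far as overlap allows, so their offsets and overlaps are a description. Midpoints of the 117 pairs were a median of 50.5 bp apart (95% interval of the median 41.0 to 68.5 bp), 83 pairs were within 100 bp and 9 were over 200 bp. The overlap took a median of 78.7% of the CLK peak and 86.7% of the CYC peak. CLK was the wider member in 64 pairs and CYC in 53. In 23 pairs the CLK peak lay within the CYC peak, and in 28 the reverse was true. Near the limit of the rule the smallest overlaps were 37, 47 and 58 bp. The last 2 were at Cdc5 and Ubc10. The overlap of 37 bp lay inside another gene, with the CLK midpoint 3634 bp from the nearest gene end, that of kermit.

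Few unshared peaks were near misses. Of the 899 CLK-only peaks, 20 (2.22%) lay within 1 kb of a CYC peak, and of the 278 CYC-only peaks, 16 (5.76%) lay within 1 kb of a CLK peak. The partner peaks in these counts include shared ones, such as those beside the CLK-only peak of per. The median distance to the partner list was 76140 bp for CLK-only and 25583 bp for CYC-only peaks, and the CLK list, with 1016 peaks against 394, offers more neighbours. Just outside the rule, a CYC-only peak whose nearest gene end was that of kermit lay 7 bp from a CLK peak. That CLK peak was itself shared. The closest pairs of a CLK-only and a CYC-only peak were 26 bp apart at CG9338, 117 bp apart between papi and mio and 131 bp apart at sni, which encodes the carbonyl reductase Sniffer. At sni the CLK peak was 591 bp wide and the CYC peak 441 bp.

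By median, peaks were wider in the shared class, with intervals that overlapped those of the unshared peaks. Median width was 320 bp for shared CLK peaks (285 to 358 bp) and 283 bp for CLK-only peaks (274 to 291 bp). It was 304 bp for shared CYC peaks (278 to 324 bp) and 270 bp for CYC-only peaks (261 to 284 bp). Widths of 500 bp or more were found in 21 of 117 shared CLK peaks (17.9%) against 62 of 899 CLK-only peaks (6.90%), and in 18 of 116 shared CYC peaks (15.5%) against 23 of 278 CYC-only peaks (8.27%). A wider peak meets a partner peak more easily, so width is tied to the rule and was not tested.

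Core clock genes supplied much of the wide end. They held 10 of the 21 shared CLK peaks and 10 of the 18 shared CYC peaks of 500 bp or more. Outside them the median was 310 bp for shared CLK peaks (278 to 354 bp) and 282 bp for CLK-only peaks (274 to 291 bp). It was 291 bp for shared CYC peaks (274 to 309 bp) and 270 bp for CYC-only peaks (261 to 284 bp). Widths of 500 bp or more were then found in 10.7% of shared CLK and 6.88% of CLK-only peaks. For CYC these shares were 7.77% of shared and 8.33% of CYC-only peaks, so that difference was not seen outside core clock genes. Of the 10 widest CLK peaks 6 were shared, and of the 10 widest CYC peaks also 6. With each list split by width into 4 parts, the share that met the partner was 16.1% in the widest part of the CLK list and 10.6%, 8.66% and 10.6% in the others, from wide to narrow. In the CYC list it was 37.8%, 32.3%, 27.3% and 20.4% in the same order.

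**Figure D2:**
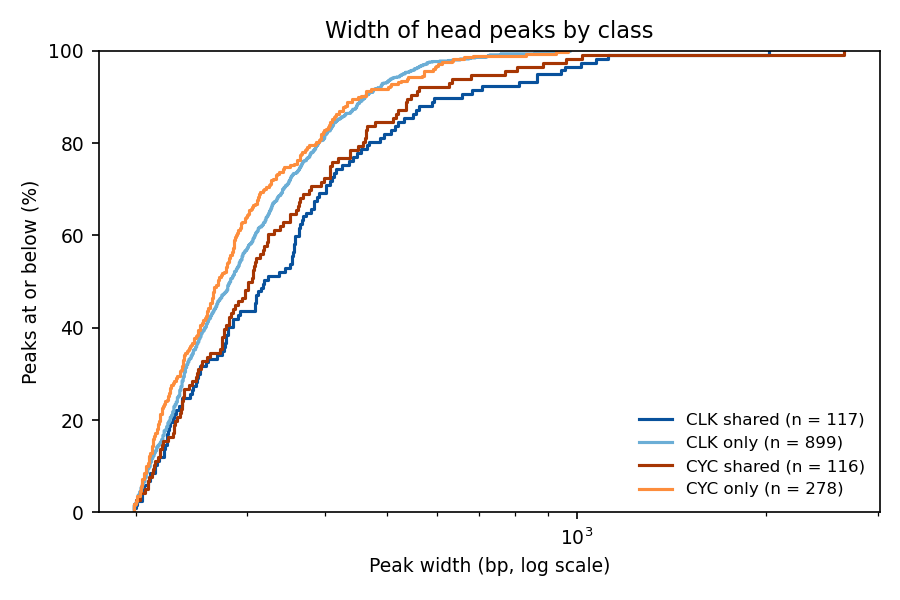
Cumulative share of head peaks by width in bp on a log axis, with 1 line for each class. The lines of the shared classes lie to the right of those of the unshared classes, with medians of 320 and 304 bp against 283 and 270 bp, and only the shared classes reach beyond 1000 bp.

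The widest unshared peaks marked other genes. For CLK-only the widest was in scrib, a cell polarity gene (3R 26542843 to 26543821, 978 bp), followed by one within both CG31710 and pelo (919 bp) and one beside CG12301 (911 bp). Further wide CLK-only peaks lay at Bx (901 bp), which encodes an LMO protein, inside CG44837, nearest to an end of CG5906 (860 bp), in Atx2 (858 bp), in CG31523 (759 bp) and beside disco (758 bp), which encodes a zinc-finger factor. Atx2 encodes the fly Ataxin-2, an RNA-binding protein that promotes translation of PER in clock neurons. The nearest CYC peak to each of these 8 was 23496 to 414155 bp away.

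For CYC-only the widest peak was at Cyp28d2, a cytochrome P450 gene (2L 5207987 to 5208956, 969 bp), followed by one 2252.5 bp from an end of mod(mdg4) (927 bp), a chromatin factor gene. Next came brp (833 bp), which encodes the active zone protein Bruchpilot, Sqor (686 bp), which encodes a sulfide oxidoreductase, and ana2 (663 bp), a centriole gene. The last of the 8 were a peak inside the phosphatase gene Ptp99A (636 bp), whose nearest gene end was that of CG2321, one in Synd (635 bp), which encodes the F-BAR protein Syndapin, and one in CG3618 (612 bp). Synd and ana2 had a CLK peak 1482 and 1146 bp away, and for the other 6 the nearest was 9199 bp or more away.

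By median distance CYC-only peaks lay closest to gene ends. Shared peaks had the largest medians, with intervals that overlapped that of CLK-only peaks. The median distance from midpoint to the nearest end of a protein-coding gene was 219 bp for CYC-only (182 to 263 bp), 392 bp for CLK-only (315 to 498 bp), 581 bp for shared CLK (402 to 1389 bp) and 640 bp for shared CYC peaks (330 to 1340 bp). The annotation gave no strand, so an end may be a transcription start or a transcript end. Within 1 kb of an end lay 216 of 278 CYC-only peaks (77.7%, 72.3 to 82.5%), 582 of 899 CLK-only peaks (64.7%, 61.5 to 67.9%), 65 of 117 shared CLK peaks (55.6%, 46.1 to 64.7%) and 63 of 116 shared CYC peaks (54.3%, 44.8 to 63.6%).

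Within the CYC list the shared peaks were lower by 23.4 points than the CYC-only peaks (Fisher's exact test, two-sided, adjusted p = 8.15e-05). CLK-only peaks were also less often near an end than CYC-only peaks (64.7 against 77.7%, Fisher's exact test, adjusted p = 0.000353). Within the CLK list the difference of -9.18 points for shared minus CLK-only did not pass (Fisher's exact test, adjusted p = 0.131). Without core clock genes that difference was -4.86 points (Fisher's exact test, adjusted p = 0.659). These p-values were adjusted over 14 tests, and the CYC-list and unshared differences passed in all 10 alternative settings.

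**Figure D3:**
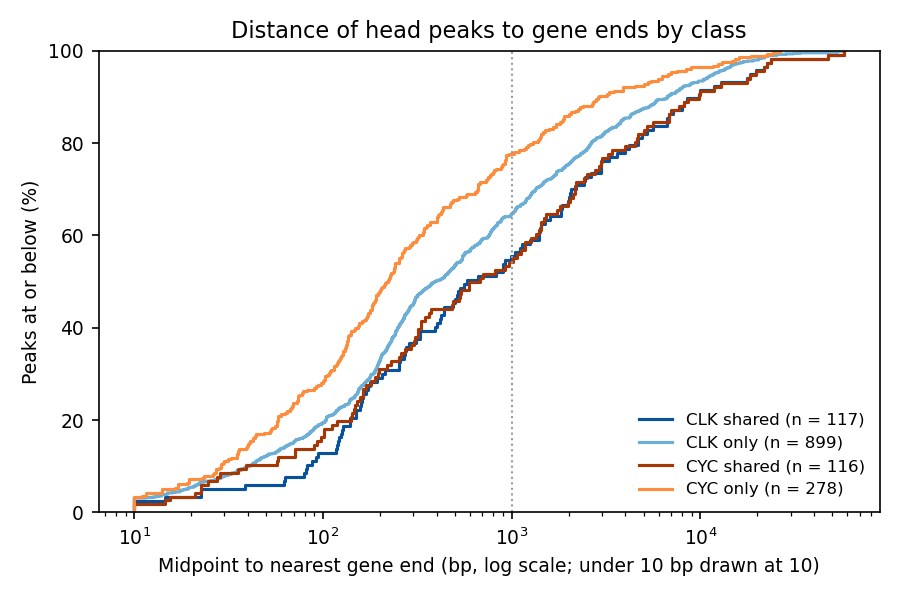
Cumulative share of head peaks by distance from the midpoint to the nearest end of a protein-coding gene, in bp on a log axis, with 1 line per class and a dotted line at 1000 bp. At that distance the lines stand at 77.7% for CYC-only, 64.7% for CLK-only, 55.6% for shared CLK and 54.3% for shared CYC peaks.

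CYC-only peaks lay near the ends of several genes more often than the other classes. Ends of 2 or more genes were within 1 kb of 143 of 278 CYC-only midpoints (51.4%, 45.4 to 57.5%), 286 of 899 CLK-only midpoints (31.8%, 28.8 to 35.0%), 26 of 117 shared CLK midpoints (22.2%, 15.1 to 30.8%) and 25 of 116 shared CYC midpoints (21.6%, 14.5 to 30.1%). Examples were the CYC-only peaks at UQCR-6.4 (603 bp), with ends of 4 genes within 1 kb, and at CG3618, with ends of 3. Shared minus CYC-only was -29.9 points (adjusted p = 4.63e-08 by Fisher's exact test), and CLK-only minus CYC-only was -19.6 points (adjusted p = 1.82e-08). Shared minus CLK-only was -9.59 points (Fisher's exact test, adjusted p = 0.0336), a call lost without the core clock genes (-6.89 points, adjusted p = 0.178), with a window of 500 bp (-5.76 points) and with neighbouring peaks joined (-8.69 points). This measure was added after the values were seen, with p adjusted over its 3 tests. A midpoint near ends of 2 or more genes is also near 1 end, so the measure is nested in the near-end shares. Among near-end peaks alone, which were not tested, it held for 143 of 216 CYC-only and 286 of 582 CLK-only peaks. For shared peaks it held for 26 of 65 of CLK and 25 of 63 of CYC.

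Deep inside genes the order was the reverse. A midpoint counted near an end cannot be deep, so this measure largely mirrors the near-end shares and is not a separate result. Midpoints inside a gene and over 1 kb from any end made up 37.1% of shared CYC peaks (43 of 116, 28.3 to 46.5%), 35.9% of shared CLK peaks (42 of 117, 27.2 to 45.3%), 28.7% of CLK-only peaks (258 of 899, 25.8 to 31.8%) and 20.9% of CYC-only peaks (58 of 278, 16.2 to 26.1%). The difference passed for shared against CYC-only (16.2 points, adjusted p = 0.00674, Fisher's exact test) and for CLK-only against CYC-only (7.84 points, adjusted p = 0.0295), not for shared against CLK-only (7.20 points, adjusted p = 0.204). Without the core clock genes no difference of this kind passed, at 11.0 points for shared (adjusted p = 0.107, Fisher's exact test) and 7.28 points for CLK-only (adjusted p = 0.0891), and the latter was lost in 4 further settings. With a window of 500 bp the difference for shared against CYC-only was 12.4 points and did not pass (Fisher's exact test, adjusted p = 0.0546). Genes that held these deep peaks had median lengths of 23567 bp for shared CLK, 23577 bp for CLK-only and 18635 bp for CYC-only peaks. Peaks outside genes and over 1 kb from an end were the least common, with 10 of 117, 59 of 899 and 4 of 278.

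**Figure D4:**
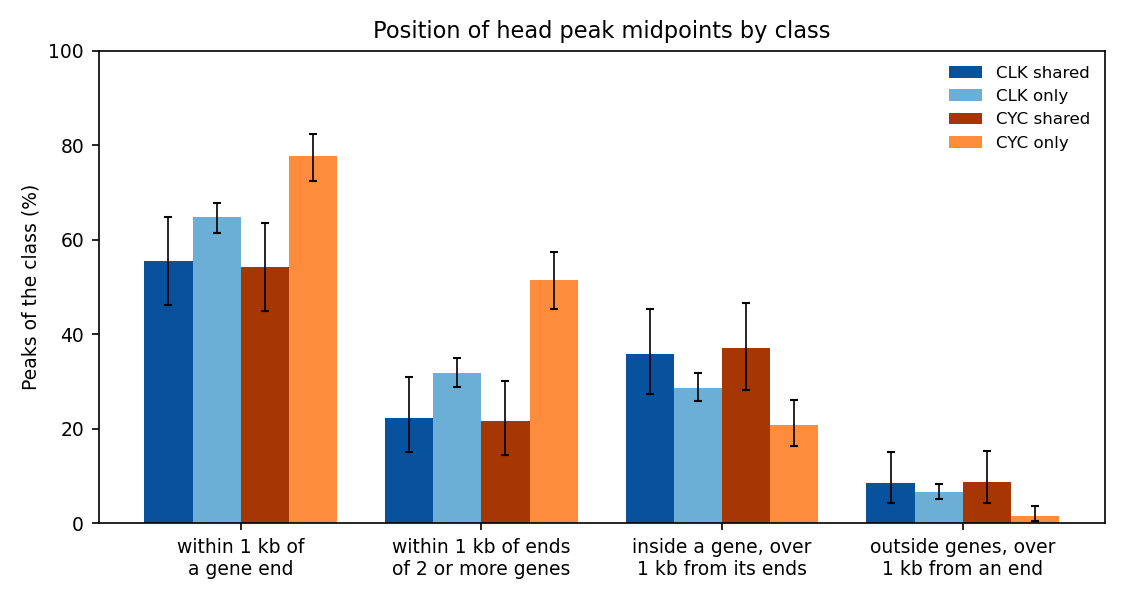
Share of head peak midpoints, in percent of each class, at 4 kinds of position, with 95% Clopper-Pearson intervals as error bars. CYC-only peaks are the highest near gene ends, at 77.7%, and near ends of 2 or more genes, at 51.4%, and the lowest inside genes, at 20.9%.

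Genes near both proteins were reached through a shared pair or through separate peaks. An end within 1 kb of a shared midpoint was found for 94 genes (0.675% of 13922), of a CLK-only midpoint for 891 (6.4%) and of a CYC-only midpoint for 385 (2.77%). Of 123 genes with an end near peaks of both proteins, 91 had a shared peak there and 32 had separate CLK-only and CYC-only peaks (0.23% of 13922). A shared pair places its gene near both proteins by the overlap that formed the classes, so this split is a description. In 14 of these 32 the closest peaks lay nearest to the same end of the gene and in 18 to opposite ends, with a median gap of 920 bp. The 32 genes came from 25 pairs of peaks. Those with the smallest gaps were CG9338 (26 bp), mio and papi (117 bp), sni (131 bp), CG13876, Gk1 and Prp4k (222 bp) and baf (268 bp). The peaks of the 7 genes with gaps under 268 bp shared an end, and those of baf lay at opposite ends of a gene of 1104 bp.

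The gene lists for head tissue split between classes in small numbers. The share of all genes with an end within 1 kb was 6.4% for CLK-only, 0.675% for shared and 2.77% for CYC-only peaks. Of 20 phototransduction genes, 5 (25%) had an end near a CLK-only peak, namely the opsin genes Rh4 and Rh5, the arrestin gene Arr1, the myosin gene ninaC and the channel gene trp, with widths from 200 to 314 bp, and rdgC held one farther inside. None had an end near a shared or a CYC-only peak, while norpA, the phospholipase C of the cascade, held a shared site deep inside (CLK 401 bp, CYC 219 bp). Of 54 neuropeptide and receptor genes, 1 (1.85%) had an end near a shared site, 2 (3.70%) near a CLK-only and 2 (3.70%) near a CYC-only peak. The shared site was at sNPF-R, the receptor of short neuropeptide F, where 515 and 398 bp of CLK and CYC overlapped by 398 bp. AstC-R1 and CCHa2-R had CLK-only peaks (202 and 237 bp), and CCHa2 and the diuretic hormone receptor gene Dh44-R2 had CYC-only peaks (238 and 314 bp). CCHa2 encodes the ligand of CCHa2-R.

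By the wider rule, a midpoint in the gene or within 1 kb, the shares of all genes were 0.963% for shared, 8.29% for CLK-only and 3.25% for CYC-only peaks. Longer genes offer more room under this rule, and gene length was not taken into account. Of 24 synaptic genes, 1 (4.17%) had an end near a shared, 3 (12.5%) near a CLK-only and 1 (4.17%) near a CYC-only peak. Over all genes the end shares were 0.675%, 6.4% and 2.77%. By the wider rule 3 of the 24 (12.5%) had a shared site, 6 (25%) a CLK-only and 1 (4.17%) a CYC-only peak. The shared ones were SerT, the serotonin transporter, Syt1, the calcium sensor of synaptic vesicles, and nrv2, a subunit of the sodium pump. At nrv2 the CYC peak was 770 bp and the CLK peak 358 bp, while at SerT CLK was the wider, with 410 bp against 278 bp. By the CLK midpoint this site lay 675 bp from an end of SerT and 121 bp from one of CG45069. brp had 1 CLK-only and 2 CYC-only peaks, and its CYC-only peak of 833 bp lay 9199 bp from the nearest CLK peak. Gad1, which makes GABA, VGAT, which loads it into vesicles, and futsch, which encodes a microtubule-binding protein, were near CLK-only peaks by an end.

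Among 33 nuclear receptor, bZIP and bHLH-PAS genes, 4 (12.1%) had shared sites, 8 (24.2%) CLK-only and 2 (6.06%) CYC-only peaks by the same wider rule, against 0.963%, 8.29% and 3.25% of all genes. Besides vri, Pdp1 and kay the shared site was at ss, which encodes the bHLH-PAS protein Spineless, with 357 bp of CLK and 221 bp of CYC near an end. Of these, vri and Pdp1 are also on the core clock list. By an end within 1 kb, 2 of the 33 (6.06%) were near shared, 2 (6.06%) near CLK-only and 1 (3.03%) near CYC-only peaks. Over all genes the end shares were 0.675%, 6.4% and 2.77%, so by ends the CLK-only share was no higher than that of all genes. ERR, the estrogen-related receptor gene, was near a CLK-only peak of 212 bp and Hr96 near a CYC-only peak of 574 bp. Of 23 clock output genes, by the wider rule, Slob, which encodes a binding partner of the Slowpoke channel, held a shared site (310 and 209 bp). ITP, Mid1 and Mef2 had CLK-only peaks, and no gene of this list had a CYC-only peak. By this rule 0.963% of all genes had a shared, 8.29% a CLK-only and 3.25% a CYC-only peak. By ends only ITP and Mid1 remained, both near CLK-only peaks. Of 31 cytochrome P450 genes, by their ends, 1 (3.23%) was near a CLK-only peak, 2 (6.45%) near CYC-only peaks and none near a shared one. These were Cyp6a13 for CLK-only and Cyp28d2 and Cyp9f2 for CYC-only peaks. Against 6.4% and 2.77% of all genes, the CLK-only share was lower and the CYC-only share higher. Of 88 ribosomal protein genes, by their ends, 5 were near CLK-only peaks, 3 near CYC-only peaks and none near a shared one, against 6.4%, 2.77% and 0.675% of all genes. Counts this small were not tested.

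Shared CYC peaks had a CYC neighbour within 10 kb more often than CYC-only peaks, and the core clock genes held much of this difference. The median distance to the nearest other CYC peak was 74023 bp for shared CYC and 82038.5 bp for CYC-only peaks. Another CYC peak lay within 10 kb of 31 of 116 shared CYC peaks (26.7%, 18.9 to 35.7%) and 37 of 278 CYC-only peaks (13.3%, 9.55 to 17.9%), a difference of 13.4 points (Fisher's exact test, adjusted p = 0.00702). It no longer passed when midpoints within 200 bp set the classes (9.39 points, adjusted p = 0.0838 by Fisher's exact test) or at a distance of 20 kb (10.1 points, adjusted p = 0.1). Another CLK peak lay within 10 kb of 43 of 117 shared CLK peaks (36.8%, 28.0 to 46.2%) and 261 of 899 CLK-only peaks (29.0%, 26.1 to 32.1%), which did not pass (7.72 points, Fisher's exact test, adjusted p = 0.187). It passed with a distance of 5 kb (9.59 points), with equal list sizes by width (17.6 points) and in the widest 50% of each list (18.8 points). All 14 shared CLK peaks and all 13 shared CYC peaks of core clock genes had such a neighbour. Without core clock genes the differences were 4.79 points for CYC (Fisher's exact test, adjusted p = 0.573) and -0.0296 points for CLK (adjusted p = 1).

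**Figure D5:**
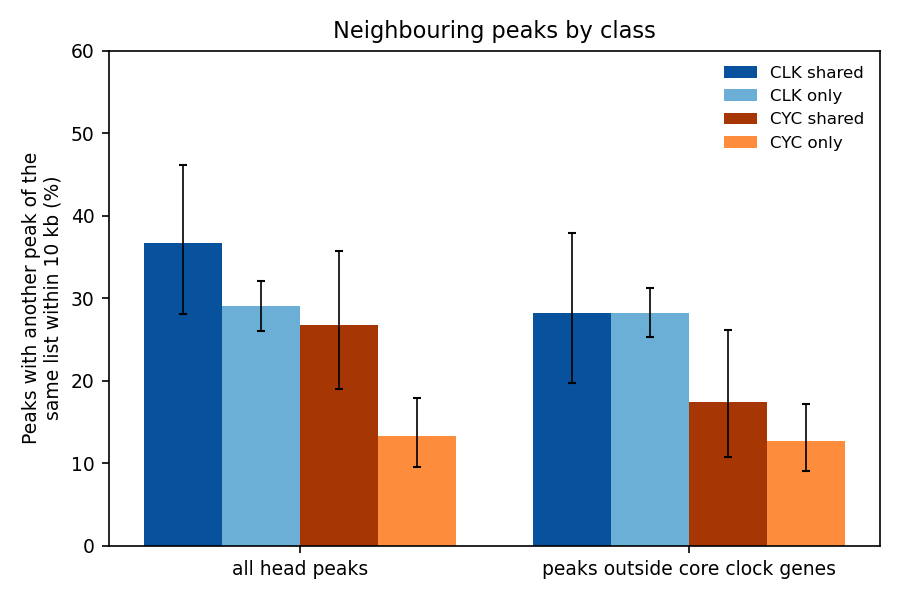
Share of head peaks with another peak of the same list within 10 kb, in percent of each class, for all peaks and for peaks outside core clock genes, with 95% Clopper-Pearson intervals. Outside core clock genes the shared and unshared bars are at 28.2 and 28.2% for CLK and 17.5 and 12.7% for CYC.

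When peaks of both lists were linked across gaps of up to 10 kb, with a shared pair as 1 site, 1027 groups resulted, of which 837 were single sites and 190 held 2 or more. Of these 190, 86 held CLK-only peaks alone, 8 CYC-only peaks alone, 4 shared sites alone and 92 a mixture. The 8 groups with 2 or more shared sites were those of vri, Pdp1, kay, Cipc, per, ctrip and tim and 1 on 3L, 10321871 to 10332558, far from any protein-coding gene. The last held 2 shared sites, 47407.5 and 57623 bp from an end of Or67d by the CLK midpoint, and 1 CLK-only peak. Among the 5 largest groups, vri (17342 bp) and Pdp1 (8774 bp) had 6 sites each. So did a group of CLK-only peaks over CG15172 and Sidpn (14877 bp), while 5 sites each lay around stv (23587 bp) and around bero and CG9338 (11707 bp), where no site was shared.

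Arms other than X were not tested. The share of CLK peaks that met CYC ran from 8.11% on 2R (18 of 222) to 13.4% on 3L (27 of 201) among the 5 large arms, with overlapping intervals, and that of CYC peaks from 23.1% on 2R to 34.8% on 2L. X held 14 of 117 shared CLK peaks, 133 of 899 CLK-only peaks (14.8%) and 27 of 278 CYC-only peaks (9.71%). CLK-only minus CYC-only was 5.08 points on X and did not pass (Fisher's exact test, adjusted p = 0.0819), while with a reciprocal overlap of 50% it was 5.20 points and passed (adjusted p = 0.0495). Chromosome 4 had 4 CLK and 2 CYC peaks, and both CYC peaks were shared, in ey, the Pax6 gene eyeless (CLK 280 bp, CYC 276 bp), and at Sox102F (200 and 236 bp).

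The share of head peaks that met a gonad peak was similar in each class. No share for sites placed at random was computed, so these values do not show whether such meetings were rare. A peak of either protein in testis or ovary met 5 of 117 shared CLK peaks (4.27%, 1.40 to 9.69%), 34 of 899 CLK-only peaks (3.78%, 2.63 to 5.25%) and 12 of 278 CYC-only peaks (4.32%, 2.25 to 7.42%). No contrast passed (Fisher's exact test, adjusted p from 0.844 to 1). The 5 shared sites were at w, also within kirre (866 bp of CLK, met in 3 gonad lists), at CG7465 (met by both testis lists), inside per (met by CYC of ovary), beside hbt and in CG1513, nearest to an end of CG12923.

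The same contrast near gene ends was read in the gonads, without the histone gene cluster and minor contigs. In testis 34.2% of 161 shared CYC peaks and 39.8% of 1323 CYC-only peaks lay within 1 kb of a gene end. In ovary these were 17.9% of 84 and 38.5% of 1740. For CLK the values were 33.5% of 158 against 45.7% of 2179 in testis and 15.3% of 85 against 33.8% of 240 in ovary. In all 3 tissues and for both proteins the shared class had the lower share, and the differences within testis and ovary were not tested on their own.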

How the data were processed

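The submitters' processing notes name MACS2, Bowtie2, fastp, SAMtools, Picard, ChIPseeker and deepTools with the build dm6, and no version, threshold or way of combining replicates. The deposited lists had 3 columns without a header, and were matched to tissues by an initial in their names. Read depth was unknown. The smallest width, end minus start, was 199 bp.

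Gene positions came from the RefSeq table of Release 6 (13922 protein-coding genes on the major arms), which has no strand or sequence, so the planned E-box test was not run. Of the listed symbols, 4 matched by synonym and 2 not at all. Python 3.11.15 and SciPy 1.17.1 were used. Shares were compared with two-sided Fisher's exact tests, peaks as units, Benjamini-Hochberg adjusted, threshold 0.05, after checks on simulated lists. Peaks of 1 locus depend on each other, which makes these p-values smaller than warranted. Median intervals are 95% order-statistic intervals.

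Members and gene lists were chosen with earlier results of these data known. Named genes were core clock genes with peaks, the nearest-end genes of the 12 widest overlaps and the 8 widest peaks of each unshared class, the 8 closest unshared pairs at a gene, list members by width, the smallest overlaps and gaps and the 5 largest groups. Alternatives varied the overlap, window, distance, list size, width, joining and genes.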

Additional observations from a re-analysis of the deposited data

Results flagged for a closer look

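The contrast between shared and CYC-only peaks near gene ends differed between head and testis. The log odds ratio of lying within 1 kb of a gene end, shared against CYC-only, was -1.08 in head and -0.241 in testis. The difference of these log odds ratios was -0.835 (SE 0.294, Wald test of a binomial model of peaks, adjusted p = 0.0179 over 4 tests, added after the values were seen). The difference was -0.0174 for CYC between head and ovary (same binomial test, adjusted p = 0.963), and 0.127 and 0.653 for CLK between head and testis and head and ovary (adjusted p = 0.840 and 0.181). The call was lost in 6 of 7 alternative settings, where the value lay between -0.917 and -0.535, and held with the histone cluster and contigs kept (-1.06, binomial test, adjusted p = 0.000561).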

How the results depend on the processing

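No paired analysis was possible because each protein had 1 list over its replicates, and leaving out a replicate was not possible for the same reason. The planned CACGTG test and its other E-box forms were not run, for want of sequence. Depth and enrichment were unknown, so a peak missed by low depth could not be told from an absent one. The cause of the changes below was not tested, and in some settings fewer peaks entered. Of 14 planned contrasts, near-end differences within the CYC list and between the unshared classes passed in every setting. With reciprocal overlap of 50%, 9.25% of CLK and 23.9% of CYC peaks were shared, near-end shared minus CLK-only passed (-12.7 points), as did X for CLK-only minus CYC-only (5.20 points), and the gonad difference for CLK was -0.713 points. With midpoints within 200 bp, deep CLK-only minus CYC-only (7.29 points) and clustering in CYC (9.39 points) no longer passed, and the gonad difference in CYC was 0.434 points. With equal list sizes by width, 15.0% of each list was shared, medians were 425 bp for shared CLK and 399 bp for CLK-only, 42 genes were near shared and 346 near CLK-only peaks, deep CLK-only minus CYC-only was 5.67 points (not passing), clustering in CLK was 17.6 points (passing), and gonad differences were 2.90 points for CYC and 0.896 points between the unshared classes. With the widest 50%, 8.58% of CLK and 22.3% of CYC peaks were shared, medians were 442, 367, 422 and 363 bp for shared CLK, CLK-only, shared CYC and CYC-only, genes numbered 29, 482 and 212 for shared, CLK-only and CYC-only, deep CLK-only minus CYC-only was 8.10 points (not passing), clustering in CLK 18.8 points (passing), X in CYC -7.22 points and the gonad difference in CLK -2.63 points. With joined peaks the gonad difference in CYC was 0.172 points and 2 or more gene ends in CLK -8.69 points (not passing). With a window of 500 bp the deep differences were 12.4 points in CYC and 7.74 points between unshared classes, and 2 or more gene ends in CLK -5.76 points, none passing. With 3 kb, genes numbered 169, 1563 and 684. With a distance of 5 kb clustering in CLK passed (9.59 points), and with 20 kb clustering in CYC did not (10.1 points). With gonad midpoints within 200 bp the gonad difference in CLK was -2.15 points. Added after the data were seen were removal of core clock genes and of X. Without core clock genes, deep differences of 11.0 and 7.28 points, clustering in CYC (4.79 points) and 2 or more gene ends in CLK (-6.89 points) did not pass, and clustering in CLK was -0.0296 points. Without X the gonad difference in CLK was -0.873 points. The head minus ovary difference of log odds ratios for CYC turned to 0.521 with reciprocal overlap, 0.0258 with midpoints, 0.357 with joined peaks, 0.727 at 500 bp and 0.108 at 3 kb. Head minus testis for CLK turned to -0.00321 in the widest 50% and -0.0510 with histone genes kept.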
